A study of Mus musculus with 19 samples.

Results

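Rbp4, which encodes the plasma carrier of retinol, and 7 further genes of retinoid handling were followed across sorted alveolar type II (AT2) cells and lung tissue of mice labelled Etv5KO and control mice. The 8 genes, of 36528 gene IDs in the count tables, were found by Entrez Gene ID from a list of symbols: Rbp4, Stra6, Lrat, Dhrs3, Rara, Rarb, Rarg and Rxra. The list was chosen by measured values: Rbp4 heads it because of its low counts in Etv5KO against control AT2 cells in an earlier analysis of the same libraries. The AT2 values of the 8 genes by genotype are therefore given as a description with no test, and the lung libraries, which that choice did not use, carry the tests by genotype.

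Retinol, the alcohol form of vitamin A, travels in plasma bound to retinol binding protein 4 and is taken up at the membrane receptor STRA6. Inside the cell LRAT esterifies it for storage, or dehydrogenases oxidise it by way of retinal to retinoic acid, and DHRS3 returns retinal to retinol. Retinoic acid binds the nuclear receptors RAR alpha, beta and gamma, which act as heterodimers with retinoid X receptors such as RXR alpha. In the lung, retinyl esters are stored in lipid-laden fibroblasts of the alveolar wall, and retinoic acid takes part in the formation of alveoli.

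Libraries of polyadenylated RNA numbered 5 from Etv5KO AT2 cells, 4 from control AT2 cells, 5 from Etv5KO lung and 5 from control lung. Control mice carried SpcCreERT2 and RosatdTomato, and Etv5KO mice had both transgenes together with Etv5ko/loxp, that is 1 knockout allele of the ETS family transcription factor gene Etv5 and 1 allele flanked by loxP sites. The Cre recombinase is made where the surfactant protein C promoter is active, which in lung means chiefly AT2 cells, and tamoxifen switches it on. All mice of both genotypes received tamoxifen at 100 mg/kg on 5 days and then waited 5 days. Sorting kept EpCAM+ tdTomato+ cells that were CD45- and CD31-, which takes leukocytes and endothelial cells out. No source used here gives the ages of the mice. The series design names 5 mice per genotype, and the fifth control AT2 library was not analysed here. Which AT2 library and which lung library share a mouse is not in the labels.

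Counts summed to 17426415 to 26722625 per library in Etv5KO AT2 cells, 20279607 to 28671262 in control AT2 cells, 20332410 to 22478603 in Etv5KO lung, and 14971793 to 26989453 in control lung. In CPM, the read count scaled by library size, the 10 AT2 markers together held 134900 to 174802 CPM in Etv5KO AT2 cells and 142034 to 214335 CPM in control AT2 cells, against 18268 to 25091 CPM in Etv5KO lung and 20186 to 26591 CPM in control lung. Control AT2 library 2 stood apart from the other 3 control AT2 libraries, at −37.7 on the second principal component against −1.42 to 6.27. On the first component it lay at −7.44, against −35.3 to −23.1 in the other controls and 8.24 to 27.3 in Etv5KO AT2 cells. It also had the lowest AT2 marker sum of the controls. The other 3 held 191338 to 214335 CPM, above every Etv5KO AT2 library. Etv5 stood no lower in the Etv5KO libraries as a group, at 620 to 765 CPM in Etv5KO AT2 cells against 626 to 725 CPM in control AT2 cells, and at 94.3 to 120 CPM in Etv5KO lung against 92.3 to 111 CPM in control lung. The counts cover whole gene models, so they do not check the genotype labels.

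The 300-base windows around the annotated start sites of the 8 genes, from 250 bases before to 50 after, were searched for the core of ETS factor sites, since Etv5 encodes an ETS factor, and for the direct repeat bound by retinoic acid receptors. RefSeq lists 19 such windows for the 8 genes on GRCm38.p6, a later assembly than the mm9 build of the counts. Both windows of Rbp4 are shown because Rbp4 carries the AT2 difference, and the window of Rarb because it alone among the 19 holds the repeat. Capitals mark the core GGAA on either strand (TTCC where it lies on the other strand) in the Rbp4 windows, and the repeat in the Rarb window.
Rbp4, chr19:38125272-38125571, minus strand: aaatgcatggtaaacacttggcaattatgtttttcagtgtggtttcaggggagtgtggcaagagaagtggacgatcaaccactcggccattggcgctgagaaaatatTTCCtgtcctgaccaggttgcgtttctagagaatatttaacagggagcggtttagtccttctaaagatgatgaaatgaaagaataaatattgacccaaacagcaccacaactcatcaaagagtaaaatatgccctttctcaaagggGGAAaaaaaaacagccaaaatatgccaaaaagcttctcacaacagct
Rbp4, chr19:38124762-38125061, minus strand: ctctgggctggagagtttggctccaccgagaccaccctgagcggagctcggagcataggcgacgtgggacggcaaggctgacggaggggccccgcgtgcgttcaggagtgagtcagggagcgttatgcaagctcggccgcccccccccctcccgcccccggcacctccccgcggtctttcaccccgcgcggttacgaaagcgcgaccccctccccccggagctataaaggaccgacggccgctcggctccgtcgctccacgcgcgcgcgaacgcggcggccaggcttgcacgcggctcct
Rarb, chr14:16575427-16575726, minus strand: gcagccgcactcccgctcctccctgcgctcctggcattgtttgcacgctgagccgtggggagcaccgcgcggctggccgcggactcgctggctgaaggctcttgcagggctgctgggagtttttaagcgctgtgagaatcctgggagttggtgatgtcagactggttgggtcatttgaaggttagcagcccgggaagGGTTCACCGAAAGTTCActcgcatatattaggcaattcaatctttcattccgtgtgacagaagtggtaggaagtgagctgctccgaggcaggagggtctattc

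The first Rbp4 window holds GGAA at 2 places, 1 on each strand, and the second holds none. GGAA on either strand occurs in 96% of the 32851 windows of all genes, with a median of 3 places per window. The longer form CCGGAA, which contains GGAA, is in none of the 19 windows of the 8 genes and in 14.9% of all windows. The repeat searched was a pair of elements in the same direction and separated by 5 bases, on either strand. Each element could be AGGTCA, the variant with the letters GGGTCA, the variant with the letters AGTTCA or the variant with the letters GGTTCA. The repeat occurs in 32 of the 32851 windows, or 0.0974%, and in Rarb it lies 53 to 37 bases before the start. Rarb is a known direct target of retinoic acid through such a repeat in its promoter. A match describes these letters and does not show binding.

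Rbp4 (Entrez Gene 19662) was low in AT2 cells of Etv5KO mice and well expressed in those of controls, and its level in lung tissue lay in the same range in both genotypes. In Etv5KO AT2 cells it had 1.74, 2.60, 2.44, 1.24 and 2.29 CPM, scaled by TMM over all 19 libraries. In control AT2 cells it had 37.0, 23.2, 46.4 and 36.9 CPM. No Etv5KO AT2 library came near the lowest control, which was library 2, the one that stood apart. The underlying counts were 27, 49, 57, 21 and 44 reads in Etv5KO AT2 cells against 675, 480, 1077 and 632 reads in control AT2 cells. The mean was 2.06 ± 0.562 CPM in Etv5KO AT2 cells (SD, n = 5) and 35.9 ± 9.57 CPM in control AT2 cells (SD, n = 4), a log2 fold change of −4.11 (SE 0.23, 95% interval −4.61 to −3.61), or 17.3-fold lower in Etv5KO. Without control AT2 library 2 the log2 fold change was −4.27. Among all genes tested in AT2 cells 9.87% passed an edgeR adjusted p of 0.05, 5.03% higher and 4.84% lower in Etv5KO. That split was 751 genes higher and 723 lower, and it was 894 higher and 482 lower when scaled by library size alone.

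The choice of genes did not draw on the lung values, though earlier results of these data were known when it was made. In lung Rbp4 had 11.1, 12.5, 10.8, 8.93 and 9.87 CPM in Etv5KO and 9.20, 12.7, 9.60, 13.6 and 11.4 CPM in controls. The genotypes overlapped, with the lowest library in Etv5KO and the highest in controls. The mean was 10.6 ± 1.34 CPM in Etv5KO lung and 11.3 ± 1.90 CPM in control lung (SD, n = 5 each). The log2 fold change was −0.09 (SE 0.13), with a 95% interval of −0.36 to 0.19 and an edgeR adjusted p of 0.978. The interval leaves out any fall in lung beyond 0.36 on the log2 scale. Whether the genotype effect differs between AT2 cells and lung was not tested. In bulk tissue, fewer cells of a type and less RNA per cell cannot be told apart.

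**Figure D1:**
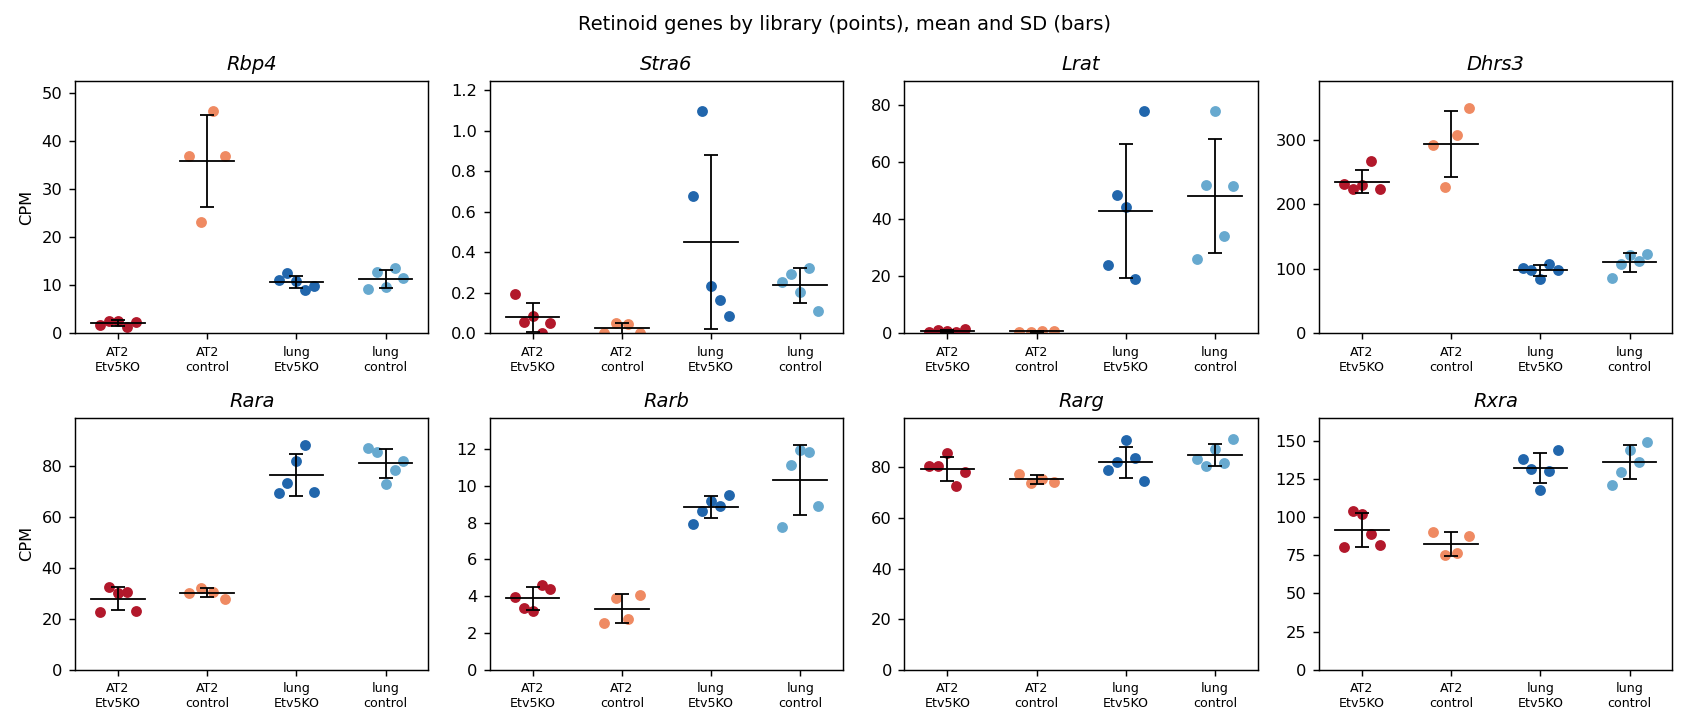
Level of the 8 retinoid genes in each library, in CPM on linear axes from 0 that differ between panels. Points are libraries, horizontal lines are group means and bars are SDs. Rbp4 lay between 1.24 and 2.60 CPM in Etv5KO AT2 cells and between 23.2 and 46.4 CPM in control AT2 cells, and the 2 lung groups overlapped.

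Stra6, the membrane receptor through which retinol leaves its plasma carrier, was close to absent from AT2 cells. It had 3, 1, 2, 0 and 1 reads in Etv5KO AT2 cells and 0, 1, 1 and 0 reads in control AT2 cells. In lung it had 17, 26, 6, 4 and 2 reads in Etv5KO and 6, 5, 6, 9 and 2 reads in controls. Libraries 1 and 2 of Etv5KO lung were the highest and the rest overlapped with controls. Stra6 did not pass the filter on low counts in any comparison and was not tested.

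Lrat, which turns retinol into the retinyl esters of the storage pool, was a lung gene and hardly detected in AT2 cells. It had 0.516, 0.901, 0.643, 0.472 and 1.35 CPM in Etv5KO AT2 cells and 0.438, 0.289, 0.646 and 0.817 CPM in control AT2 cells. The AT2 groups overlapped, with a log2 fold change of 0.51 (SE 0.39, 95% interval −0.34 to 1.37). In lung it had 24.0, 48.5, 44.1, 19.1 and 77.9 CPM in Etv5KO and 25.9, 51.8, 77.6, 33.8 and 51.6 CPM in controls. It varied more between lung libraries of 1 genotype than any other of the 7 genes tested there. The lung log2 fold change was −0.18 (SE 0.37, 95% interval −0.98 to 0.63), at an edgeR adjusted p of 0.984, and it turned to 0.08 without control lung library 3 and 0.0073 without Etv5KO lung library 4.

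Dhrs3, which reduces retinal back to retinol and is itself induced by retinoic acid, was the most abundant of the 8 genes per length in all 4 groups. It had 231, 225, 230, 267 and 223 CPM in Etv5KO AT2 cells and 293, 227, 307 and 349 CPM in control AT2 cells. Control library 2 lay among the Etv5KO libraries and the other 3 controls above all of them. In AT2 cells this gave a log2 fold change of −0.33 (SE 0.11, 95% interval −0.57 to −0.09), and of −0.44 without control AT2 library 2. In lung Dhrs3 had 101, 97.2, 83.2, 107 and 97.4 CPM in Etv5KO and 84.9, 107, 121, 111 and 124 CPM in controls. The lung groups overlapped, and the log2 fold change of −0.17 (SE 0.10, 95% interval −0.39 to 0.05) had an edgeR adjusted p of 0.978.

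The 4 nuclear receptors, through which retinoic acid acts on its target genes, overlapped between genotypes in both AT2 cells and lung. Rara lay between 22.8 and 32.4 CPM (median 30.2) in Etv5KO AT2 cells and between 27.9 and 32.2 CPM (median 30.2) in control AT2 cells. In lung Rara lay between 69.4 and 88.3 CPM (median 73.4) in Etv5KO and between 72.9 and 86.9 CPM (median 81.8) in controls. Its log2 fold changes were −0.13 (SE 0.11) in AT2 cells and −0.08 (SE 0.08, 95% interval −0.26 to 0.10) in lung.

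Rarb, the receptor gene that retinoic acid induces and whose window holds the repeat shown above, had the lowest level of the 4 per length. It had 3.93, 3.34, 3.17, 4.60 and 4.42 CPM in Etv5KO AT2 cells and 2.52, 3.91, 2.76 and 4.08 CPM in control AT2 cells. In AT2 cells it gave a log2 fold change of 0.22 (SE 0.20, 95% interval −0.21 to 0.64). In lung it had 7.95, 8.66, 9.18, 8.89 and 9.53 CPM in Etv5KO and 7.76, 11.1, 12.0, 11.8 and 8.92 CPM in controls. Control lung libraries 2, 3 and 4 lay above all Etv5KO lung libraries and control library 1 below them, with a log2 fold change of −0.22 (SE 0.12, 95% interval −0.50 to 0.05) and an edgeR adjusted p of 0.978.

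Rarg, the gamma receptor, lay between 72.5 and 85.6 CPM in Etv5KO AT2 cells and between 73.8 and 77.5 CPM in control AT2 cells. In lung it lay between 74.7 and 90.8 CPM in Etv5KO and between 80.5 and 91.3 CPM in controls. Its log2 fold changes were 0.07 (SE 0.06) in AT2 cells and −0.05 (SE 0.06, 95% interval −0.19 to 0.09) in lung. Rxra, the shared partner of the 3 RARs, lay between 80.2 and 104 CPM in Etv5KO AT2 cells and between 75.4 and 90.5 CPM in control AT2 cells. In lung Rxra lay between 118 and 144 CPM in Etv5KO and between 121 and 149 CPM in controls, with log2 fold changes of 0.13 (SE 0.09) in AT2 cells and −0.04 (SE 0.07, 95% interval −0.19 to 0.12) in lung.

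In AT2 cells 1 of the 7 genes tested, Rbp4, was past the threshold and lower in Etv5KO, beside 9.87% of all genes. The choice of genes fixed the call of Rbp4, so the count carries no test. The median log2 fold change of the 7 was 0.07, beside −0.01 over all genes tested. In lung none of the 7 passed, beside 0.415% of all 17098 genes tested there. Of the 7, 0 had an unadjusted p under 0.05 in lung by edgeR, by DESeq2 or by limma-voom. Their median log2 fold change was −0.09 in lung, beside −0.01 over all genes.

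**Figure D2:**
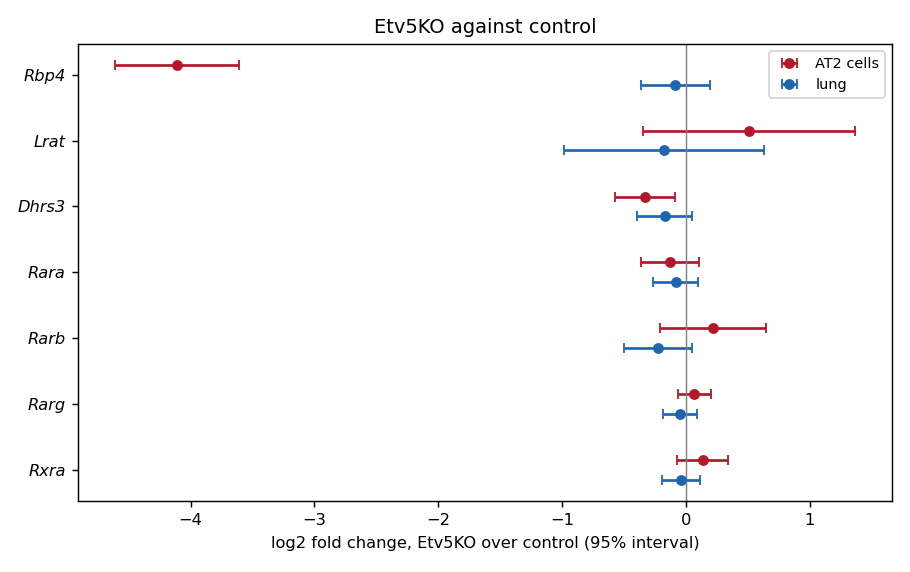
Log2 fold change of Etv5KO over control for the 7 retinoid genes tested, with 95% intervals, in AT2 cells (red, description only) and in lung (blue). Rbp4 stood at −4.11 in AT2 cells and −0.09 in lung, and all lung intervals include 0.

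Per length, Rbp4 came below Dhrs3 and the receptors Rarg, Rxra and Rara in Etv5KO AT2 cells, and next to Dhrs3 in control AT2 cells. On the authors' size-factor-scaled RPKM, Etv5KO AT2 cells had Dhrs3 at 79.5, Rarg at 22.0, Rxra at 14.2, Rara at 5.45, Rbp4 at 1.5, Rarb at 0.926, Lrat at 0.137 and Stra6 at 0.0172. In that order only Rbp4 and Rarb overlapped between neighbours. Control AT2 cells had Dhrs3 at 99.1, Rbp4 at 26.1, Rarg at 20.8, Rxra at 12.8, Rara at 5.89, Rarb at 0.788, Lrat at 0.0967 and Stra6 at 0.00507, and there only Rbp4 and Rarg overlapped.

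On the same per-length scale the order in lung was Dhrs3, Rarg, Rxra and Rara in both genotypes, followed by Rbp4 and Lrat, then Rarb and Stra6. Rbp4 averaged 7.98 ± 0.961 RPKM in Etv5KO lung and 8.43 ± 1.46 RPKM in control lung (SD, n = 5 each). Lrat averaged 7.77 ± 4.27 RPKM in Etv5KO lung and 8.70 ± 3.58 RPKM in control lung, and it overlapped with Rbp4 in both. Rarg and Rxra also overlapped in both lung groups.

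Etv5KO AT2 cells had less Rbp4 than Etv5KO lung, and control AT2 cells more than control lung. The tissue comparisons use the same AT2 libraries that chose Rbp4, so its folds here describe those libraries and carry no test. The other genes tested were listed with Rbp4, so their edgeR adjusted p values between AT2 cells and lung are also a description. In Etv5KO the log2 fold change of AT2 cells over lung was −2.35 (SE 0.17, 5.09-fold lower in AT2 cells), and every AT2 library lay below every lung library. In controls it was 1.68 (SE 0.18, 3.19-fold higher in AT2 cells), and every AT2 library lay above every lung library. Lung tissue holds AT2 cells among many others, so a lung value is a mixture.

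Dhrs3 was higher in AT2 cells than in lung in both genotypes, by 1.28 (SE 0.08, edgeR adjusted p 4.95e-09) in Etv5KO and 1.43 (SE 0.13, edgeR adjusted p 9.91e-07) in controls on the log2 scale. Lrat was 53.8-fold lower in AT2 cells than in lung in Etv5KO and 87.2-fold lower in controls, with log2 fold changes of −5.75 (SE 0.45) and −6.45 (SE 0.42). Both passed, at edgeR adjusted p 5.69e-08 in Etv5KO and 3.76e-08 in controls. The counts behind these folds were low in AT2 cells: 8 to 26 reads per Etv5KO AT2 library and 6 to 15 per control AT2 library, against 465 to 1838 per Etv5KO lung library and 615 to 2304 per control lung library.

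The receptors Rara, Rarb and Rxra were lower in AT2 cells than in lung in both genotypes. In Etv5KO the log2 fold changes of AT2 cells over lung were −1.46 for Rara, −1.19 for Rarb and −0.53 for Rxra, with edgeR adjusted p of 3.69e-08, 1.15e-06 and 5.95e-05. In controls they were −1.42 for Rara, −1.63 for Rarb and −0.71 for Rxra, with edgeR adjusted p of 7.47e-09, 1.09e-05 and 7.70e-06. Rarg was nearly level, at −0.04 in Etv5KO (edgeR adjusted p 0.565, and −0.41 with adjusted p 0.000299 when scaled by library size alone) and −0.17 in controls (edgeR adjusted p 0.0223). The control call for Rarg was lost when any 1 of the 4 control AT2 libraries was left out, with adjusted p up to 0.0886.

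**Figure D3:**
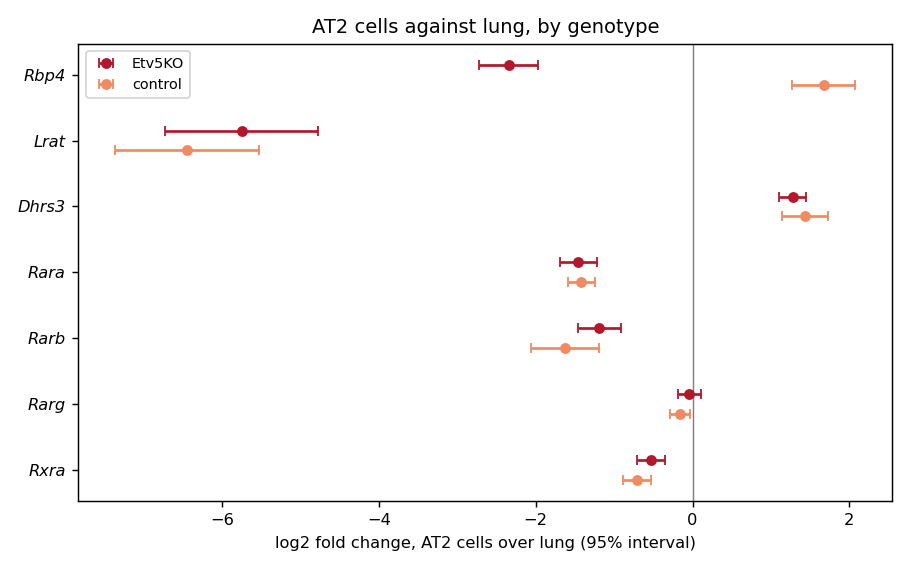
Log2 fold change of AT2 cells over lung for the 7 retinoid genes tested, with 95% intervals, in Etv5KO (dark red) and control (orange) mice. Rbp4 stood at −2.35 in Etv5KO and 1.68 in controls, and the other 6 genes had the same sign in both.

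The AT2 levels of Rbp4 were used to choose it, so Rbp4 was left out of the counts between AT2 cells and lung. The other genes were listed with it, so their counts are a description. In Etv5KO 5 of the other 6 genes tested passed, 1 higher and 4 lower in AT2 cells, and in controls 6 of 6 passed, 1 higher and 5 lower. Among the lower genes in controls, the call of Rarg was lost in 4 of 9 fits that left out 1 library. Most genes differ between a sorted cell type and its tissue. Among all genes tested, 78% passed in Etv5KO (38.3% higher and 39.7% lower in AT2 cells), and 74.5% passed in controls (35.6% higher and 38.9% lower). The median log2 fold change of the 6 genes was −0.86 in Etv5KO, beside 0.01 over all genes, and −1.06 in controls, beside −0.01 over all genes. Scaled by library size alone, the median of all genes moved to −0.36 in Etv5KO and −0.42 in controls. The split of all genes was then 3579 higher and 9341 lower in Etv5KO in place of 6417 and 6646, and 3318 higher and 9484 lower in controls in place of 6092 and 6662.

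The other genes of retinoid metabolism were read from a list of 66 in 10 roles: carriers, uptake, ester storage and release, retinol and retinal oxidoreductases, retinoic acid synthesis, retinoic acid breakdown, carotenoid cleavage, other retinoid X receptors, receptor co-regulators, and genes known to respond to retinoic acid. The list was drawn up by role, with earlier results of these data known. In AT2 cells 37 were tested, and 3 rose and 2 fell in Etv5KO, or 13.5%, beside 9.87% of all genes. Their median log2 fold change was −0.02. The count ran between 2 and 7 when single libraries were left out. In lung 51 were tested and none passed with edgeR, beside 0.415% of all genes. Of the 51, 6 had an unadjusted edgeR p under 0.05, and the share of all genes under it was not counted. DESeq2 called 2 in lung, Adh1 and Rai14, beside 123 genes higher and 74 lower among all 17093 it tested. None was called by limma-voom. Markers of AT2 cells and of other cell types also moved in AT2 libraries, where 5.03% of all genes rose and 4.84% fell in Etv5KO. Here 3 of 10 AT2 markers fell, 4 of 8 AT1 markers rose and 1 fell, and 2 of 6 airway secretory markers rose. Among 6 endothelial markers 0 passed. Of 5 ciliated markers, 2 rose and 1 fell in Etv5KO. Tppp3 averaged 154 ± 23.8 CPM in Etv5KO AT2 cells and 95.8 ± 7.75 CPM in control AT2 cells (SD, n = 5 and 4), with a log2 fold change of 0.67 (edgeR adjusted p 0.00221), and that of Dynlrb2 was 0.66 (edgeR adjusted p 0.0219). Cfap126 fell, at 2.84 CPM in Etv5KO and 5.04 CPM in controls (log2 −0.84, edgeR adjusted p 0.0259), and Foxj1, the ciliated transcription factor, was at 2.74 CPM in Etv5KO and 2.79 CPM in controls (log2 −0.03, edgeR adjusted p 0.945). Tppp3 made up most of the ciliated sum. The ciliated markers summed to between 170 and 223 CPM in Etv5KO AT2 libraries and between 109 and 132 CPM in control AT2 libraries. Of 7 leukocyte markers tested 1 rose, Cd68, at 29.1 ± 1.86 CPM in Etv5KO and 18.5 ± 3.89 CPM in controls (log2 0.65, edgeR adjusted p 0.00767). Chil3, Mrc1 and Cd79a also lay higher in Etv5KO and Ptprc, Marco and Csf1r lower, and none of those passed. The 8 leukocyte markers summed to between 64.8 and 84.6 CPM in Etv5KO AT2 libraries and between 49.5 and 86.4 CPM in control AT2 libraries. The part of these markers in the AT2 results was not tested.

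Lrp2 encodes megalin, the endocytic receptor that takes up filtered retinol binding protein in the kidney. It had 1112, 881, 915, 1065 and 1223 CPM in Etv5KO AT2 cells, against 648, 620, 738 and 703 CPM in control AT2 cells. All Etv5KO AT2 libraries lay above all controls, and Lrp2 rose with a log2 fold change of 0.61 (SE 0.11, edgeR adjusted p 0.00478). In lung Lrp2 had 90.4, 102, 97.6, 128 and 151 CPM in Etv5KO and 45.3, 108, 57.4, 67.1 and 57.6 CPM in controls. All but control library 2 lay below every Etv5KO lung library, and the lung log2 fold change of 0.76 (SE 0.22) had an edgeR adjusted p of 0.307, or 0.0315 without control lung library 2.

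Aldh1a2, a retinaldehyde dehydrogenase that makes retinoic acid, rose in Etv5KO AT2 cells at a low level. It had 3.10, 2.65, 3.56, 2.42 and 2.65 CPM in Etv5KO AT2 cells, against 1.92, 1.3, 1.51 and 1.69 CPM in control AT2 cells, with no overlap. The log2 fold change was 0.84 (SE 0.18, edgeR adjusted p 0.0125). In lung Aldh1a2 lay between 26.0 and 59.1 CPM in Etv5KO and between 32.4 and 45.4 CPM in controls, with a log2 fold change of 0.17 (edgeR adjusted p 0.978).

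Mesothelium and lung fibroblasts also express retinaldehyde dehydrogenases. Of the 4 mesothelial markers the sum lay between 15.2 and 24.4 CPM in Etv5KO AT2 libraries and between 8.05 and 15 CPM in control AT2 libraries, with no overlap. Of 3 of them tested 1 rose, Msln (log2 fold change 0.82, edgeR adjusted p 0.0463), and Wt1 was under 1 CPM on average in both groups. The 8 mesenchymal markers summed to between 55.9 and 112 CPM in Etv5KO AT2 libraries and between 50.2 and 74.4 CPM in control AT2 libraries, and none of the 8 passed. Their part in the Aldh1a2 result was not tested.

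Aldh1a1, the related enzyme, had 17.7, 14.2, 17.3, 14.7 and 20.1 CPM in Etv5KO AT2 cells and 11.3, 9.41, 15.3 and 11.5 CPM in control AT2 cells. The groups overlapped, and its log2 fold change of 0.49 (SE 0.15) had an edgeR adjusted p of 0.0683, though DESeq2 gave 0.0238. Both dehydrogenases were chiefly lung genes, with Aldh1a1 at 572 to 853 CPM in Etv5KO lung and 458 to 803 CPM in control lung. All 3 synthesis genes tested in the tissue comparisons were lower in AT2 cells than in lung, in both genotypes. Among all genes tested 39.7% were lower in AT2 cells in Etv5KO and 38.9% in controls.

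Rai14, named for its induction by retinoic acid, had 556, 733, 656, 602 and 579 CPM in Etv5KO AT2 cells and 448, 535, 434 and 448 CPM in control AT2 cells. It rose with a log2 fold change of 0.41 (SE 0.10, edgeR adjusted p 0.0194), and all Etv5KO AT2 libraries lay above all controls. The call was lost without control AT2 library 1, 3 or 4, with adjusted p up to 0.0694. In lung Rai14 lay between 145 and 165 CPM in Etv5KO and between 125 and 149 CPM in controls, with a log2 fold change of 0.22 (SE 0.06, edgeR adjusted p 0.293).

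Ces1e, of a family of carboxylesterases that cleave retinyl esters, had 13.7, 13.1, 9.04, 12.2 and 10.9 CPM in Etv5KO AT2 cells and 17.5, 14.4, 16.8 and 16.9 CPM in control AT2 cells. It fell with a log2 fold change of −0.49 (SE 0.13, edgeR adjusted p 0.0324) and no overlap. Nrip1, a co-repressor of nuclear receptors that retinoic acid induces, had 46.8, 52.1, 44.5, 46.3 and 50.3 CPM in Etv5KO AT2 cells and 54.7, 59.7, 54.4 and 63.3 CPM in control AT2 cells. It fell with a log2 fold change of −0.29 (SE 0.08, edgeR adjusted p 0.0385) and no overlap. The call of Ces1e was lost in 5 of 9 fits that left out 1 library and that of Nrip1 in 6 of 9, with adjusted p up to 0.0878 and 0.102. Carboxylesterase genes are close in sequence, and the authors counted uniquely aligned reads alone.

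**Figure D4:**
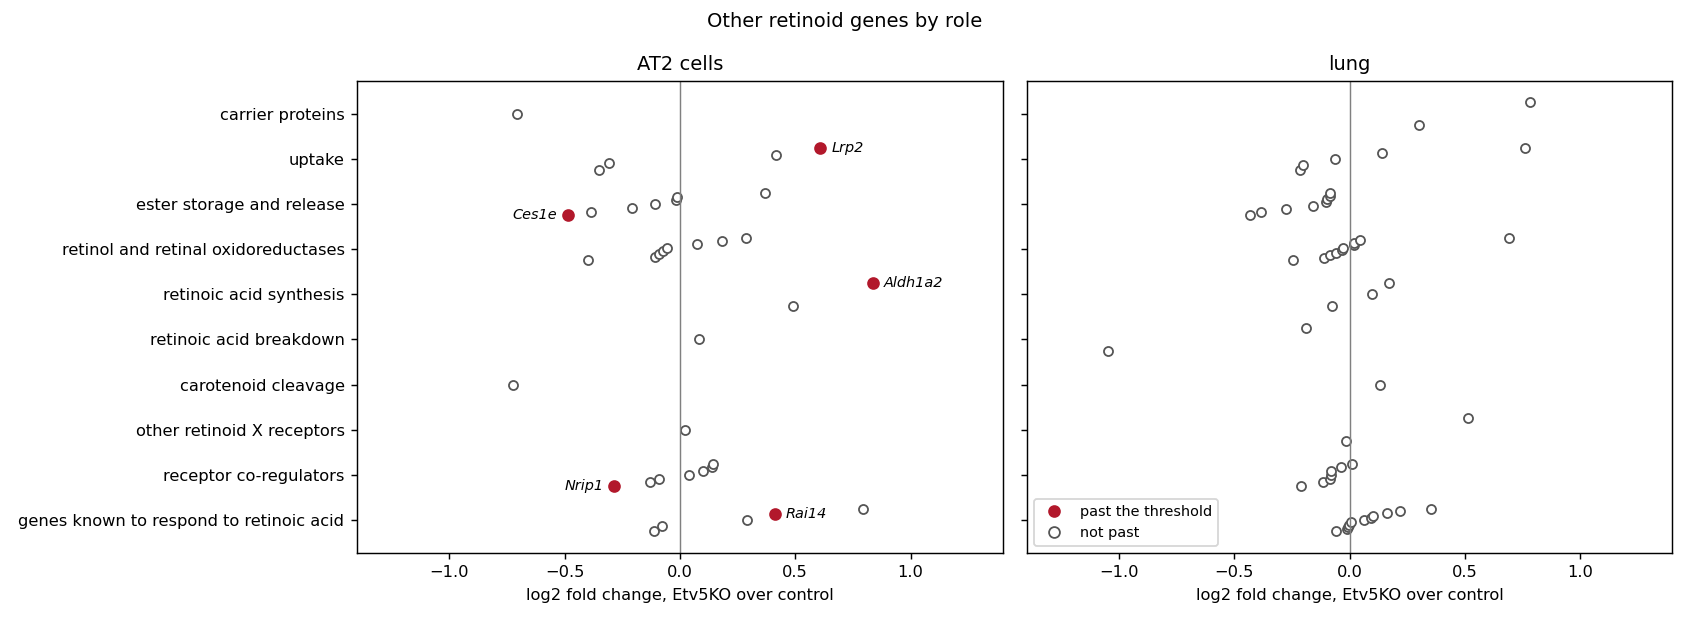
Log2 fold change of Etv5KO over control for the other retinoid genes, by role, in AT2 cells (left, 37 tested) and lung (right, 51 tested). Each point is a gene, filled red where it passed an edgeR adjusted p of 0.05: 5 genes in AT2 cells and 0 in lung.

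Between AT2 cells and lung, 19 of 49 other retinoid genes tested were higher and 27 lower in AT2 cells in Etv5KO, beside 38.3% higher and 39.7% lower among all genes. In controls 18 of 51 were higher and 28 lower, beside 35.6% and 38.9% of all genes. The counts of the list and of its roles are descriptions to be read beside these shares, and were not tested against other genes. Of the 11 genes known to respond to retinoic acid, 2 were higher and 9 lower in AT2 cells in both genotypes. Hoxa5, a homeobox gene of the lung mesenchyme, averaged 1.34 ± 0.316 CPM in Etv5KO AT2 cells and 46.2 ± 7.81 CPM in Etv5KO lung (SD, n = 5 each), a log2 fold change of −5.08 (edgeR adjusted p 1.16e-11). Btg2, an antiproliferative gene, was higher in AT2 cells, with log2 fold changes of 1.51 in Etv5KO and 1.60 in controls (edgeR adjusted p 8.70e-10 and 6.82e-08). Of the 8 genes of ester storage and release, 5 were higher and 3 lower in AT2 cells in both genotypes. Pnpla2, a triglyceride lipase, was the higher kind, with log2 fold changes of 1.34 in Etv5KO and 1.35 in controls, and Lipa, the lysosomal acid lipase, the lower kind, at −5.01 and −5.45.

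Cyp26b1, which breaks retinoic acid down, was not tested in AT2 cells by genotype, with 0.236 to 0.416 CPM in Etv5KO and 0.345 to 0.583 CPM in controls. In lung Cyp26b1 had 5.43, 6.89, 5.57, 13.2 and 17.0 CPM in Etv5KO and 10.3, 13.5, 51.2, 11.2 and 12.3 CPM in controls, with a log2 fold change of −1.05 (SE 0.50, edgeR adjusted p 0.915). Control lung library 3 was far above the rest. Without it, an alternative chosen after seeing the data, the log2 fold change was −0.29 (edgeR adjusted p 1.00).

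Adh1, an alcohol dehydrogenase that oxidises retinol, had 139, 194, 181, 93.6 and 191 CPM in Etv5KO lung and 130, 89.8, 92.2, 84.7 and 97.4 CPM in control lung. Etv5KO library 4 lay among the controls and the other 4 Etv5KO libraries above all of them. The log2 fold change was 0.69 (SE 0.18), with an edgeR adjusted p of 0.243, and 0.83 with adjusted p 0.0246 without Etv5KO lung library 4. In AT2 cells Adh1 lay between 1.5 and 3.48 CPM in Etv5KO and between 1.35 and 2.30 CPM in controls. The 8 mesenchymal markers summed to between 2523 and 4891 CPM in Etv5KO lung and between 2790 and 4746 CPM in control lung, and their part in the lung values of Adh1 was not tested.

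The nearest annotated genes on each side of Rbp4 were read for comparison, in the gene order of GRCm38.p6. Ffar4, a receptor for long-chain fatty acids, had 6.90, 7.95, 5.70, 4.90 and 6.96 CPM in Etv5KO AT2 cells and 11, 11.7, 10.6 and 10.1 CPM in control AT2 cells. It fell with a log2 fold change of −0.75 (SE 0.14, edgeR adjusted p 0.00549) and no overlap. In lung Ffar4 lay between 5.63 and 10.7 CPM in Etv5KO and between 7.68 and 9.84 CPM in controls (log2 fold change −0.08, edgeR adjusted p 0.983). Next to it, Cep55, which acts in the last step of cell division, had a log2 fold change of 0.98 (SE 0.48, edgeR adjusted p 0.266) in AT2 cells. On the other side Gm32440 and Pde6c were at or near 0 in all libraries and were not tested.

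The 5 genes whose levels lay nearest to those of Rbp4 over the 19 libraries were Trf, Adamts1, Ppp1r3c, Arnt2 and Tox, among 15372 genes that averaged 1 CPM or more. Nearness was the root mean square difference of log2 CPM after each gene's mean was taken off, and it was 0.48 for Trf, 0.71 for Adamts1, 0.72 for Ppp1r3c, 0.75 for Arnt2 and 0.78 for Tox. The measure draws on the AT2 libraries that chose Rbp4, so the values are a description. Over the 9 AT2 libraries alone 2 of these 5, Adamts1 and Trf, were again among the nearest 5, and over the 10 lung libraries alone 0 were.

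Trf, which encodes the plasma iron carrier transferrin, had 59.9, 55.9, 44.8, 76.8 and 49.8 CPM in Etv5KO AT2 cells and 864, 591, 880 and 684 CPM in control AT2 cells. As with Rbp4, lung lay between the AT2 groups, with Trf at 326 to 391 CPM in Etv5KO lung and 389 to 488 CPM in control lung. Adamts1, a secreted metalloprotease, lay between 7.55 and 13.5 CPM in Etv5KO AT2 cells and between 157 and 295 CPM in control AT2 cells. Its lung values lay between 75.5 and 156 CPM in Etv5KO and between 115 and 206 CPM in controls. Ppp1r3c, a glycogen-targeting subunit of protein phosphatase 1, lay between 5.07 and 6.84 CPM in Etv5KO AT2 cells and between 21.6 and 35.1 CPM in control AT2 cells.

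**Figure D5:**
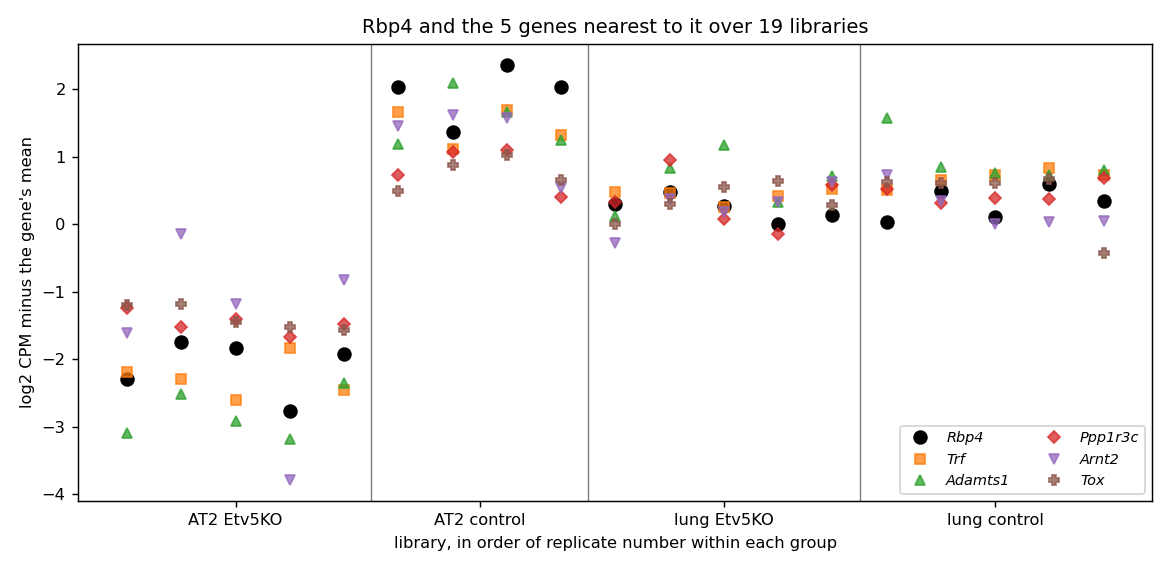
Log2 CPM minus each gene's mean for Rbp4 (black circles) and the 5 genes nearest to it, in the 19 libraries by group. All 6 genes were lower in every Etv5KO AT2 library than in every control AT2 library, and lung values lay between for Rbp4 and Trf. Rbp4 was chosen by its AT2 values and the 5 genes by nearness to it. That choice favours such a separation, which is a description only.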

How the data were processed

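Polyadenylated RNA was sequenced. The authors deposited a count of uniquely aligned reads for each gene model, per the file headers, and beside it an RPKM value divided by a size factor per sample. The counts followed that RPKM column exactly once a factor per library was allowed for, which gave the authors' size factors. Reads were aligned with GSNAP (version not given) to mm9, per the submitters' processing notes; whether counting used strand is not given in the sources used here. Gene names came from RefSeq GRCm38.p6 (31049 of 36528 IDs matched), as did the promoter windows. No pair of replicate libraries was a duplicate (chi-square per degree of freedom 7.30 to 56.9). The series design names 5 mice per genotype, and the libraries of a group were taken as separate mice.

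Each of 4 comparisons (Etv5KO against control in AT2 cells and in lung, and AT2 cells against lung in each genotype) was fitted to its own libraries with edgeR 4.0.16 in R 4.3.3: filterByExpr (minimum count 10, minimum total 15), TMM scaling, two-sided quasi-likelihood F tests and Benjamini-Hochberg adjustment over all genes tested, with a threshold of 0.05. "Rose", "fell" and "passed" refer to that threshold. CPM in the text was scaled by TMM over all 19 libraries. Intervals are 95% intervals, and standard errors come from the fold change and its F statistic. Comparisons between genes used RPKM. Nearness to Rbp4 used log2 CPM with a prior count of 2. The scripts were tested on simulated data.

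Named genes were the 8 members, Etv5, each of the 66 other retinoid genes that passed by genotype, the 2 nearest annotated genes on each side of Rbp4, and the 5 nearest in level; Aldh1a1, Adh1, Cyp26b1, Hoxa5, Btg2, Pnpla2, Lipa, Msln and the markers Tppp3, Dynlrb2, Cfap126, Foxj1 and Cd68 were chosen after their values were seen. The members and lists were chosen with earlier results of these data known. Alternatives were DESeq2 1.42.0, limma-voom (limma 3.58.1), RLE factors, library size only, the authors' size factors, no filter, 1 fit of all 19 libraries, and leaving out each library. Leaving out each library for Cyp26b1 in lung was added after seeing the data.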

Additional observations from a re-analysis of the deposited data

Results flagged for a closer look

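Single libraries stood far from the rest of their group for 3 of 52 gene and group pairs examined, and chance marks about 1 in 20 such groups. Dhrs3 had 267 CPM in Etv5KO AT2 library 4, against 223 to 231 CPM in the other 4 Etv5KO AT2 libraries. Ces1e had 6.03 CPM in control lung library 1, against 9.74 to 10 CPM in the other 4 control lung libraries. Without that library the lung log2 fold change of Ces1e was −0.50 with an edgeR adjusted p of 0.0415. Rai14 had 535 CPM in control AT2 library 2, the library that stood apart on the second principal component, against 434 to 448 CPM in the other 3 control AT2 libraries.

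Rbp4 differed between AT2 cells and lung in opposite directions in the 2 genotypes. The log2 fold change of AT2 cells over lung was −2.35 in Etv5KO and 1.68 in controls, with no overlap of libraries in either. The difference between the genotypes was not tested, and the AT2 libraries are those whose values chose Rbp4.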

How the results depend on the processing

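Of 653 alternative values over 41 results, 614 were classed as the same as the main result. For a fold change, that meant keeping its direction and its side of the threshold. For a count of genes past the threshold, it meant staying within a set ratio of the main count, or at 0 where that was 0. Rbp4 kept its direction in every alternative run, between −4.27 and −3.97 on the log2 scale in AT2 cells and between −0.15 and −0.01 in lung, and no alternative brought a retinoid gene of the 8 past the threshold in lung. In AT2 cells the choice of genes fixed the call of Rbp4, and the count carries no test. There 2 of the 8 were past the threshold with DESeq2 and 1 to 2 with single libraries left out (2 without control AT2 library 2), the second being Dhrs3. Of the other retinoid genes 2 to 7 passed in AT2 cells with single libraries left out, 2 of them without control AT2 library 4 and 3 without Etv5KO AT2 library 4. In lung 2 passed with DESeq2 and 0 to 1 with single libraries left out: Ces1e without control library 1, Lrp2 without control library 2 and Adh1 without Etv5KO library 4. The lung log2 fold changes with single libraries left out ran between −0.49 and 0.08 for Lrat and between −0.0781 and 0.0061 for Rxra. That of Lrat turned to 0.0813 without control library 3 and 0.0073 without Etv5KO library 4, and that of Rxra to 0.0061 without control library 5 and 1.41e-05 without Etv5KO library 3; none passed. Counts of all genes past the threshold in lung were 35 higher and 36 lower with edgeR, 123 and 74 with DESeq2 and 69 and 47 in 1 fit of all 19 libraries. Rai14, Ces1e and Nrip1 lost their calls in 3, 6 and 9 of 16 alternatives. The cause of these changes was not tested. No paired analysis was possible because the replicate numbers were given in accession order and the labels pair no libraries. At 0 to 26 reads per library, the levels of Stra6 are limited by depth.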
